A study of Rattus norvegicus with 18 samples.

Results

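The probe sets described here measure kinases and phosphatases of the MAP kinase, calmodulin kinase and Src-family pathways. They are all probe sets with a single platform symbol that begins with Mapk, Map2k, Map3k, Camk, Cdk, Pak, Fyn, Src, Lyn, Ptk, Ptpn, Ptpr, Ppp or Dusp, and they number 48 of the 1322 on the array, for 26 of the 720 genes it names. The array held no probe set for Cdk, Src, Lyn or Ptpn symbols, so Fyn was the sole Src-family kinase measured. Of the 48, 41 were bright enough to be tested, among 1027 tested in all. By family these are 21 of the MAP kinase cascade, 10 of the calmodulin-dependent kinases, 3 of Fyn and Ptk2b, 2 of Pak1, 2 of the receptor tyrosine phosphatases, 2 of calcineurin and 1 of Dusp5.

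Rat astrocytes from the cerebral cortex were profiled on 18 arrays, 1 per sample, to follow their gene expression on beta-amyloid. Cells of 12 samples had been on immobilized amyloid peptide (the fragment of residues 25 to 35), 3 samples each after 12 hours, 1 day, 3 days and 5 days. The 6 control samples were grown on laminin and nitrocellulose with no peptide, and no label gives their time in culture. The source label is cerebral cortex for controls 1 and 2 and cortical type-I astrocytes for the other 16 samples. Whether samples of a group were separate cultures is not in the labels, and a p-value here reflects the spread among these arrays, which may be technical.

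MAP kinase cascades carry signals from the cell surface to the nucleus in steps, each kinase activating the next by phosphorylation, and dual-specificity phosphatases end the signal by dephosphorylating the MAP kinases. Calcium bound to calmodulin activates the CaM kinases and the phosphatase calcineurin, while Fyn and Ptk2b are cytoplasmic tyrosine kinases that act near integrins and receptors. In astrocytes these pathways take part in reactive changes, calcium responses and the shaping of processes. The arrays measured mRNA, not kinase activity.

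Values are the deposited signal, a scaled linear intensity for each probe set and array. Fold changes are differences of mean log2 signal from 1 limma fit of all 18 arrays, and a change was called at a Benjamini-Hochberg adjusted p below 0.05 over the 1027 probe sets. The trimmed mean was between 502.067 and 502.632 on every array, and the number of arrays limits the precision. Hierarchical clustering on the tested probe sets of all other genes divided the arrays into 2 clusters. Cluster A held 7 arrays, namely controls 1 and 2, all of the 12 hours group, and array 3 of both the 1 day and the 3 days groups. Cluster B held the other 11, with controls 3 to 6 and the whole 5 days group. The clusters are not in the labels, and what separates them was not tested. Leaving out controls 1 and 2, the pair with the other source label, is used below as a second reading of each comparison with control. At 12 hours that reading sets arrays of cluster A against controls of cluster B, so exposure and cluster cannot be told apart in it.

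The astrocyte identity of the samples could be checked on 9 of 17 astrocyte markers. Their summed signal was 24388 to 38725 in controls, 38835 to 40169 at 12 hours, 33994 to 36957 at 1 day, 26189 to 33700 at 3 days and 42519 to 43871 at 5 days. Vim and Glul weighed most in that sum, with median signals of 15067 and 8403. Other markers varied widely, as Apoe at 308 to 8127 and Slc1a3 at 260 to 4874. Gfap was not analysed here. Of the markers of other cell types, 10 of 16 neuronal genes summed to 3642 to 6288 in controls and 3499 to 3704 at 12 hours. The neuronal sum was 5064 to 5347 at 1 day, 4018.5 to 5935.5 at 3 days and 4977 to 5290 at 5 days, and Eno2, with a median of 3152, weighed most in it. Of 11 oligodendrocyte genes 6 were measured, with sums of 1105 to 1927 in controls and 1628 to 1822 at 12 hours. Their sums were 1170 to 1971 at 1 day, 1227 to 1977 at 3 days and 1757 to 1916 at 5 days. Of 11 microglial genes 1 was measured, Itgam, at 22.3 to 77.0 over all arrays. Of 12 fibroblast and vascular genes 2 were measured, Igf2 and Pdgfrb, with sums of 644 to 8633 in controls and 3562 to 3749 at 12 hours. Their sums were 871 to 7825 at 1 day, 854 to 9283 at 3 days and 491 to 693 at 5 days. By cluster they were 3562 to 9283 in A and 491 to 935 in B. These probe sets were among those that drew the clusters, which favours that separation. Each sum takes the brightest probe set of a gene, and the fibroblast and vascular sum rests on 1 probe set of Igf2, X17012mRNA_s_at, at 211 to 8744 over all arrays. The other Igf2 probe sets did not all vary alike. E00988mRNA_s_at ranged from 12.3 to 589.3, M17960_at from 125 to 222 and M17960_g_at from 318 to 529. X16703_r_at ranged from 26.9 to 105.6 and X16703_i_at, too dim to be tested, from 0 to 56.2. Pdgfrb was at 226 to 590.3. No measured marker was at the floor on every array. In bulk samples such as these, fewer cells of a type and less RNA per cell cannot be told apart, and the part of these marker levels in the results was not tested.

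The clearest movement among the kinases and phosphatases lay between 12 hours and 5 days of exposure. Dusp5, Map2k1 (MEK1), Map3k1 (MEKK1) and the atypical MAP kinase Mapk6 were lower at 5 days than at 12 hours, while Fyn and Pak1 were higher. The differences ranged from 2.19-fold to 5.33-fold. In all, 9 of the 41 tested probe sets (22%) passed, 3 higher and 6 lower, from 6 genes, where 16.5% of all 1027 passed, 8.96% higher and 7.5% lower. At an unadjusted p under 0.05 there were 14 (34.1%, against 31.9% of all tested). With only these 2 groups in the fit 19 passed (46.3%, against 38.2%), and without controls 1 and 2 there were 12 (29.3%, against 24%). Leaving out array 1, 2 or 3 at 12 hours left 1, 0 and 0, and leaving out array 1, 2 or 3 at 5 days left 3, 0 and 1. Over all 18 fits with 1 array left out, 0 to 11 of the 41 passed, and 0.0974% to 20.9% of all tested. The ranges of the 2 times did not overlap for 28 of 41 probe sets (68.3%), 8 higher and 20 lower at 5 days, against 53.7% of all tested. The median log2 difference was -0.35 over the 41 and 0.01 over all 1027.

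All 3 arrays at 12 hours lay in cluster A and all 3 at 5 days in cluster B, so this comparison crosses the clusters. With the 2 clusters as a block in limma, 0 of the 41 passed (0% of all tested), and the adjusted p of the 9 probe sets ranged from 0.151 for Fyn to 0.62 for Map3k1. At an unadjusted p under 0.05 there were 10 of the 41, and the share of all tested at that p is not given here. All 9 kept the sign of their fold with that block. The median over the 41 turned with it, to 0.15, where that of all tested was 0.07. Of the 41, 5 (12.2%) had ranges that did not overlap between A and B, against 15% of the other tested probe sets. The clusters were drawn from those other probe sets, which favours their separation, so the 2 shares cannot be weighed against each other. The 5 were 2 probe sets of Map3k1 and 3 of Mapk14, all higher in cluster A.

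**Figure D1:**
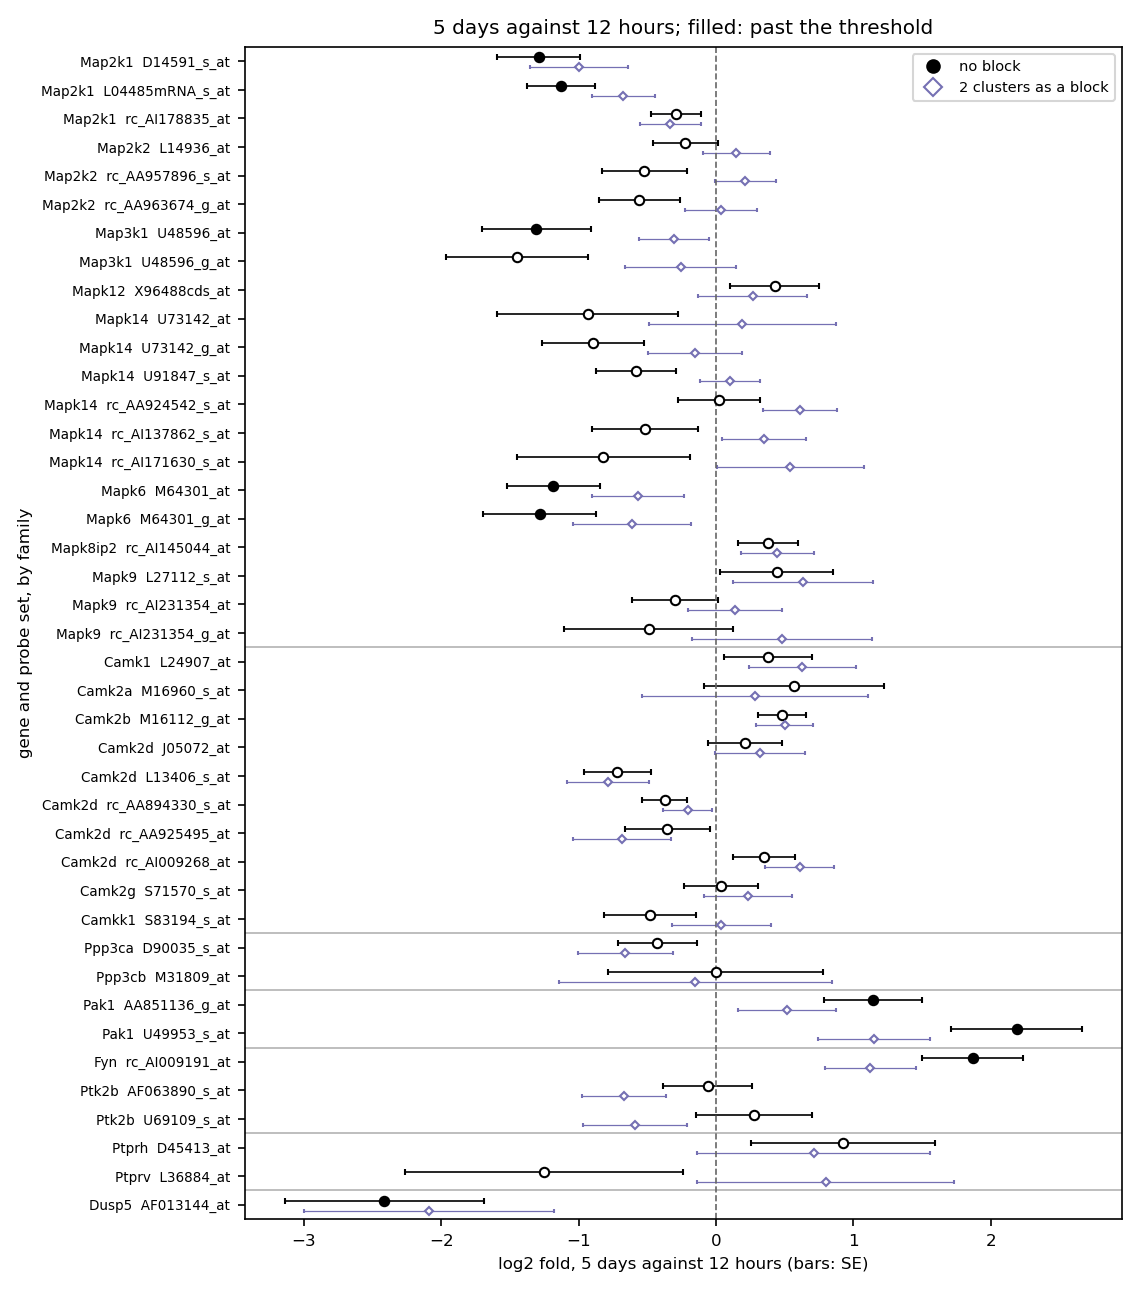
Log2 difference in signal between 5 days and 12 hours of exposure (x axis; error bars, SE) for the tested probe sets (y axis), as fitted and with the 2 array clusters as a block. The 9 probe sets that passed lie between -2.41 for Dusp5 and 2.19 for Pak1, and all 9 lie nearer 0 with the block.

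Against control, none of the 41 passed in limma at 12 hours, 1 day, 3 days or 5 days, where 1.66%, 0.292%, 0% and 0% of all tested probe sets did. At an unadjusted p under 0.05 there were 14 at 12 hours (34.1%, against 29.3% of all tested), 8 at 1 day (19.5%, against 11.7%), 2 at 3 days (4.88%, against 4.58%) and 5 at 5 days (12.2%, against 9.15%). The F-test over the 5 groups called 0 (1.66% of all tested), with 12 at an unadjusted p under 0.05 (25.1% of all tested). Signals that did not overlap with the 6 controls were found for 8 probe sets at 12 hours (19.5%, against 15% of all tested), 2 at 1 day (4.88%, against 1.75%), 1 at 3 days (2.44%, against 1.56%) and 3 at 5 days (7.32%, against 5.36%). The median log2 fold of the 41 was 0.17 at 12 hours, -0.09 at 1 day, 0.07 at 3 days and -0.10 at 5 days, and that of all tested was -0.18, -0.05, 0.02 and -0.14. These 4 comparisons share the same control arrays.

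The count at 12 hours turned on controls 1 and 2. Without them 16 of the 41 passed against control at 12 hours (39%, 12 higher and 4 lower, from 11 genes), where 31.3% of all tested did, and 6 passed at 1 day (14.6%, from 5 genes), where 5.74% did. At 3 and 5 days 0 passed without them in limma, as did 0 of all tested. At an unadjusted p under 0.05 there were 9 and 2, and the share of all tested at that p is not given here. Leaving out control 1 alone gave 11 at 12 hours (26.8%, against 20.5% of all tested). Leaving out control 2 alone gave 3, for which the share of all tested is not given here. Controls 1 and 2 shared cluster A with the arrays at 12 hours, so the source label and the cluster cannot be told apart among the controls. Without them every control was in cluster B and every array at 12 hours in cluster A. Peptide and cluster therefore cannot be told apart in that comparison, for these counts and for the single genes below.

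**Figure D2:**
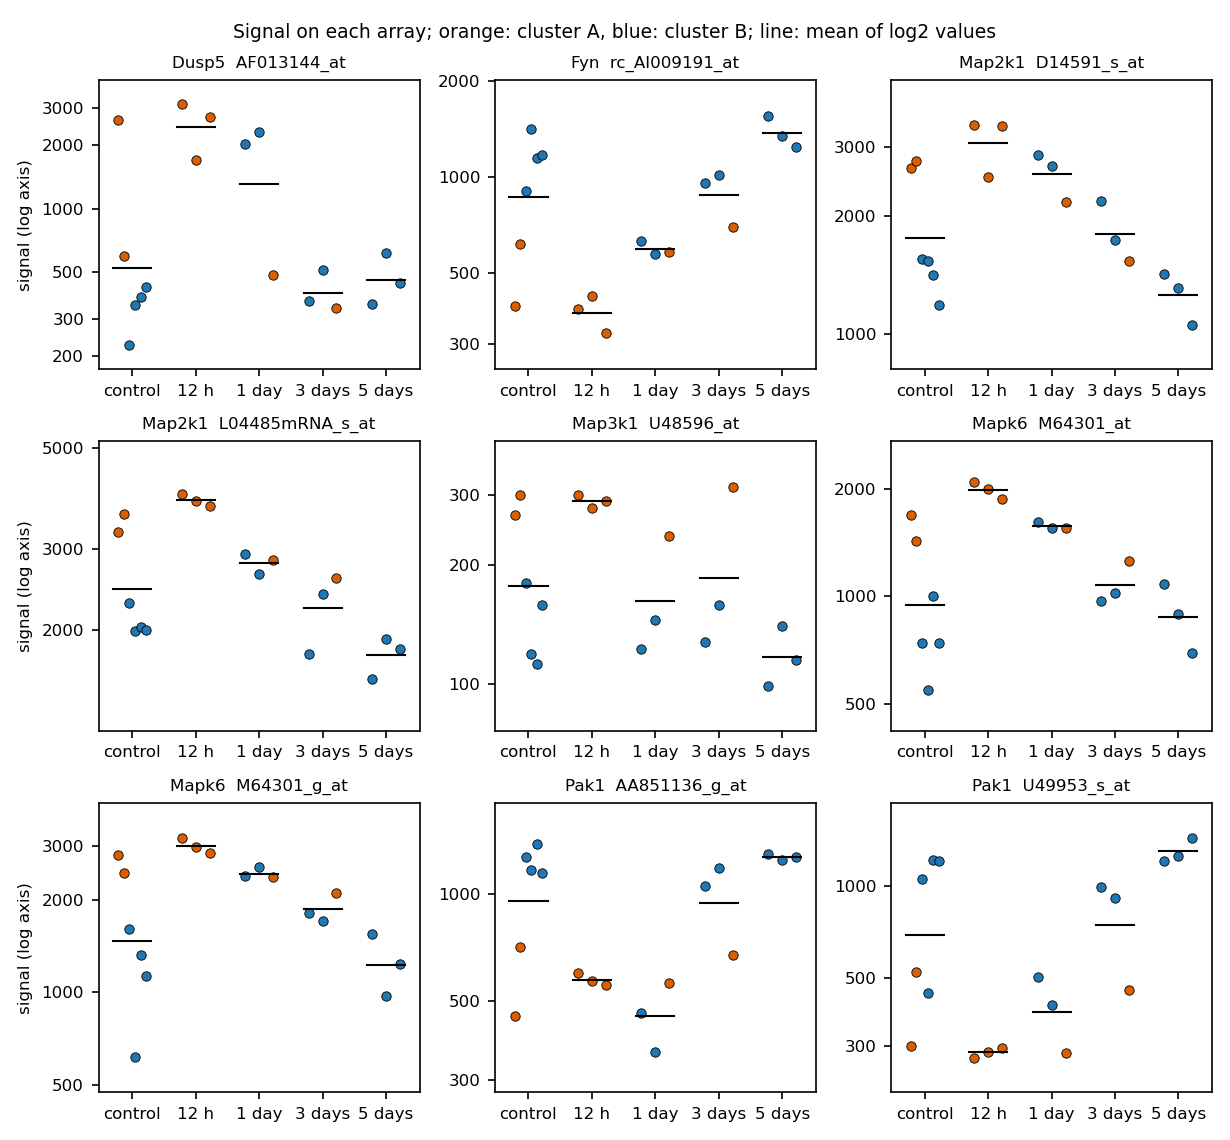
Signal on each array (y axis, log scale) by group (x axis) for the 9 probe sets that passed between 12 hours and 5 days, with cluster A and cluster B marked. Dusp5 ran from 1703 to 3131 at 12 hours and from 351 to 615 at 5 days, and Fyn from 324 to 424 and from 1239 to 1548.

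Among the dual-specificity phosphatases, Dusp5 had the largest change of the 41 probe sets. Dusp5 is a nuclear phosphatase that dephosphorylates ERK and whose gene is itself induced by ERK signalling. Its promoter is shown because it held 2 adjacent CArG boxes, the motif bound by serum response factor, in capitals, 82 to 73 and 72 to 63 bases before the start (RefSeq, GRCr8, chr1:262543524-262543773, plus strand).
Dusp5: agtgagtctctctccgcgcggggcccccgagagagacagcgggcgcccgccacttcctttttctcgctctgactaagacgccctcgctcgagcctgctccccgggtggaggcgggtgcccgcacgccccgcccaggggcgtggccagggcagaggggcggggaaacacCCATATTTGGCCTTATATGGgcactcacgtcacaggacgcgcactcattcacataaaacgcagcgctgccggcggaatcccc
A CArG box on either strand was found in 1.5% of 33469 RefSeq promoters of the same length. The match describes the letters of this window and is not a measured site.

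The 6 controls for Dusp5 had signals of 224 at the lowest, 402 at the median and 2637 at the highest. It was 3131, 1703 and 2729 at 12 hours and 2026, 2299.8 and 483 at 1 day. It was 365, 510.0 and 339 at 3 days and 351, 615 and 445 at 5 days. All 3 arrays at 12 hours and 2 of 3 at 1 day were therefore above every control but control 1, which was the highest at 2637, and control 2 was at 593. The arrays at 3 and 5 days lay within the controls. From 12 hours to 5 days Dusp5 fell 5.33-fold (log2 -2.41 ± 0.72, SE, 3 arrays a group, limma adjusted p = 0.0443), and with the 2 clusters as a block the difference was -2.09 (adjusted p = 0.317). It did not pass after quantile normalization or cyclic loess.

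Against control, the log2 fold of Dusp5 was 2.23 ± 0.63 at 12 hours (limma adjusted p = 0.0781), 1.33 at 1 day (0.426), -0.38 at 3 days (0.999) and -0.18 at 5 days (0.919). Without controls 1 and 2 it passed at 12 hours at 2.87 (adjusted p = 0.00135) and at 1 day at 1.97 (0.0274). Within cluster B, which held controls 3 to 6 and 1 day arrays 1 and 2, it was 2.69 higher at 1 day (limma adjusted p = 0.000707). In that fit 6 of the 41 passed (14.6%, against 12% of all tested).

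The only other dual-specificity phosphatase on the array, Dusp4, also a nuclear phosphatase of MAP kinases, ranged from 14.9 to 40.7 and was too dim to be tested.

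In the MAP kinase cascade, Map3k1, Map2k1 and the atypical Mapk6 were lower at 5 days than at 12 hours. The family has 21 probe sets from 8 genes. Of the 21 probe sets 5 fell, from Map3k1, Map2k1 and Mapk6, none rose, and 17 had a log2 difference below 0, with a median of -0.56. Of all 1027 tested, 7.5% fell and 511 were below 0, with a median of 0.01. The 21 probe sets also had a median fold of 0.33 against control at 12 hours and -0.26 at 5 days, with 0 passing at either time. The median of all tested was -0.18 and -0.14. Quantile normalization, median centring and cyclic loess left 18, 18 and 17 of the 21 below 0 between 12 hours and 5 days. With the 2 clusters as a block 8 of the 21 were below 0, those of Map2k1, Map3k1, Mapk6 and 1 of Mapk14, and the median turned to 0.14.

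At the top of the cascade, Map3k1, or MEKK1, is a kinase that activates the MAP2 kinases and is best known upstream of JNK. Probe set U48596_at had control signals of 113, 169 and 300.4 at the lowest, median and highest. It was 299.9, 279 and 289.7 at 12 hours, 123, 145 and 237 at 1 day, 128, 159 and 315 at 3 days and 99.3, 140.3 and 115 at 5 days. The high values were those of cluster A: controls 1 and 2 at 267 and 300.4, the 12 hours arrays, 1 day array 3 and 3 days array 3 spanned 237 to 315, and the 11 arrays of cluster B spanned 99.3 to 180. From 12 hours to 5 days it fell 2.47-fold (log2 -1.31 ± 0.40, limma adjusted p = 0.0446), and with the clusters as a block the difference was -0.31 (adjusted p = 0.62).

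The second Map3k1 probe set, U48596_g_at, had control signals of 197, 351 and 904 and was 714, 787 and 689 at 12 hours. At 1 day it was 408, 448 and 548, at 3 days 368, 345 and 863, and at 5 days 404, 217 and 218. It too did not overlap between the clusters, with 548 to 904 in cluster A and 197 to 448 in cluster B. Its difference of -1.45 ± 0.52 did not pass (limma adjusted p = 0.0655). Without controls 1 and 2, Map3k1 was 1.05 and 1.43 higher at 12 hours than control (adjusted p = 0.0217 and 0.00927).

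Map2k1, or MEK1, phosphorylates and activates ERK, the central step of the growth factor branch. Probe set D14591_s_at had control signals of 1188, 1544 and 2762, with controls 1 and 2 at 2653 and 2762. It was 3407, 2509 and 3383 at 12 hours and 2856, 2678 and 2174 at 1 day. It was 2186, 1739 and 1535 at 3 days and 1426, 1311 and 1059 at 5 days. The lowest array at 12 hours was thus above all arrays at 3 and 5 days. It fell 2.44-fold from 12 hours to 5 days (log2 -1.29 ± 0.30, limma adjusted p = 0.0259).

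Probe set L04485mRNA_s_at of Map2k1 had control signals of 1987, 2154 and 3588 and was 3967, 3816 and 3734 at 12 hours, above every control. At 1 day it was 2925, 2642 and 2838, at 3 days 1772, 2398 and 2597, and at 5 days 1560.3, 1908 and 1816, below every control. It fell 2.19-fold from 12 hours to 5 days (log2 -1.13 ± 0.25, limma adjusted p = 0.0203). The third Map2k1 probe set, rc_AI178835_at, ranged only from 113 to 190.1, with a difference of -0.29 ± 0.18 that did not pass (0.297), so the 3 probe sets of this gene differed. Against control at 12 hours the first and second of the 3 had log2 folds of 0.81 and 0.65 (limma adjusted p = 0.103 for each), and -0.48 for each at 5 days (0.52 and 0.503). Without controls 1 and 2 they passed at 12 hours, at 1.12 and 0.89 (0.00184 and 0.00203). With the 2 clusters as a block, their differences between 12 hours and 5 days were -0.99 and -0.67 (0.225 and 0.216).

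Map2k2, or MEK2, the close relative of Map2k1, did not pass in any comparison of the fit of all arrays. Its 3 probe sets ranged from 770.4 to 1476, 1298 to 3087 and 1797 to 4141, and their log2 differences between 12 hours and 5 days were -0.22, -0.52 and -0.56 (limma adjusted p = 0.558, 0.263 and 0.203). With only these 2 groups in the fit the second and the third passed (adjusted p = 0.0207 for each). Whether Map2k1 and Map2k2 differed in their change was not tested.

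Mapk6, or ERK3, is an atypical MAP kinase that acts through the kinase MK5. Probe set M64301_at had control signals of 545, 871 and 1691, with controls 1 and 2 at 1691 and 1429.6. It was 2088, 1998 and 1877 at 12 hours and 1619, 1549.9 and 1558 at 1 day. It was 972, 1018 and 1258 at 3 days and 1083, 892 and 692 at 5 days. Every array at 12 hours was above every control, and those at 1 day were above controls 2 to 6. The fall from 12 hours to 5 days was 2.27-fold (log2 -1.18 ± 0.34, limma adjusted p = 0.0409), and with the clusters as a block -0.57 (0.457).

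The second Mapk6 probe set, M64301_g_at, had control signals of 614, 1463 and 2811 and was 3188, 2975 and 2843 at 12 hours, again above every control. At 1 day it was 2393, 2562 and 2371, at 3 days 1820.1, 1705 and 2102, and at 5 days 1554, 970.2 and 1239. It fell 2.43-fold from 12 hours to 5 days (log2 -1.28 ± 0.41, limma adjusted p = 0.046), and with the clusters as a block the difference was -0.61 (0.534). Against control the folds of the 2 probe sets were 1.07 and 1.03 at 12 hours (adjusted p = 0.078 and 0.109) and 0.73 for each at 1 day (0.382 and 0.461). Without controls 1 and 2 both passed at 12 hours, at 1.43 and 1.44 (0.000868 and 0.00231), and at 1 day, at 1.09 and 1.15 (0.0115 and 0.0291).

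The stress-activated MAP kinases did not pass in any comparison of the fit of all arrays. Mapk14, the p38 alpha kinase, had 6 probe sets. For 3 of these the signals of cluster A were above those of cluster B without overlap, and 2 passed at 12 hours without controls 1 and 2, at 1.42 and 0.78 (limma adjusted p = 0.0171 and 0.0428). With only 12 hours and 5 days in the fit 4 of the 6 passed, all lower at 5 days, where 38.2% of all tested passed. Mapk12, the p38 gamma kinase, had control signals of 97.8, 121 and 146, and was 113, 115 and 121 at 12 hours and 138, 147 and 189 at 5 days. The log2 fold of Mapk12 was largest at 3 days, -0.67 ± 0.28 (adjusted p = 0.877), when its arrays were spread from 42.4 to 113. The JNK kinase Mapk9 had 3 probe sets with differences of 0.44, -0.30 and -0.49 between 12 hours and 5 days (0.492, 0.556 and 0.638), and 1 passed at 12 hours without controls 1 and 2, at 0.69 (0.0491). Mapk8ip2, which is a JNK scaffold and no kinase, was dim, at 28.3 to 67.1. Its values at 12 hours, 32.2, 31.8 and 28.3, were below every control, the lowest of which was 36.7, with a fold of -0.48 (0.123). Mapk14 and Mapk9 are singled out here after their values were seen.

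Pak1, a kinase activated by the small GTPases Rac and Cdc42 that controls actin and cell shape, was higher at 5 days than at 12 hours on both of its probe sets. Its promoter is shown because its letters include the full palindrome TGACGTCA, a cAMP response element, in capitals, 205 to 198 bases before the start (RefSeq, GRCr8, chr1:161522200-161522449, plus strand).
Pak1: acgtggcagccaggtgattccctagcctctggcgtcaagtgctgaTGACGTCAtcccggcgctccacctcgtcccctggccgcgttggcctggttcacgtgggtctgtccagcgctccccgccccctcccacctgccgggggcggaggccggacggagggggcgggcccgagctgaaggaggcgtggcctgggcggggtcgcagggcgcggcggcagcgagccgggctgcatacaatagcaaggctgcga
That element was found in 1.59% of the 33469 promoters. All 6 genes that passed had a promoter in the RefSeq table, and both strands of each were searched for 9 motifs chosen after the values were seen. The E-box CACGTG was in the Pak1 window (5.59% of all promoters) and an NF-kB site in those of Map2k1 and Map3k1 (6.33%). The AP-1 site TGANTCA (6.34%), the EGR site GCGTGGGCG (0.478%), the ETS site CCGGAAG (7.27%), the STAT site TTCNNNGAA (7.67%) and the box CCAAT (34.0%) were in none of the 6 windows.

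Probe set U49953_s_at of Pak1 had control signals of 299, 790.3 and 1219.5, with controls 1 and 2 at 299 and 525. It was 274, 287 and 296 at 12 hours, below every control, and 503, 409 and 284 at 1 day. At 3 days it was 997, 916 and 456, and at 5 days 1214, 1260.2 and 1441. It rose 4.56-fold from 12 hours to 5 days (log2 2.19 ± 0.48, limma adjusted p = 0.0203), and with the clusters as a block the difference was 1.15 (0.22).

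The other Pak1 probe set, AA851136_g_at, had control signals of 454, 1156 and 1383 and was 599.9, 568 and 556 at 12 hours. At 1 day it was 463, 361 and 561, at 3 days 1055, 1182 and 675, and at 5 days 1295, 1247 and 1271. The 3 arrays at 12 hours and the 3 at 1 day were all below controls 2 to 6. It rose 2.21-fold from 12 hours to 5 days (log2 1.15 ± 0.36, limma adjusted p = 0.0446), and with the clusters as a block the difference was 0.51 (0.529).

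At 1 day this probe set of Pak1 had the smallest adjusted p against control among the 41, with a log2 fold of -1.07 ± 0.31 (limma adjusted p = 0.315). It passed at 1 day with the 2 clusters as a block, at -1.07 (adjusted p = 0.0283), where 2.92% of all tested did, as the single one of the 41. Within cluster B the value was -1.60 (0.000474), and without controls 1 and 2 it was -1.45 (0.00124). At 12 hours the 2 Pak1 probe sets had folds of -0.73 and -1.27 against control (0.142 and 0.103), and without controls 1 and 2 both passed, at -1.11 and -1.68 (0.00211 and 0.00428).

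Fyn, a Src-family tyrosine kinase that acts downstream of integrins and growth factor receptors, had the smallest adjusted p of the 41 between 12 hours and 5 days. The control signals of Fyn were 393, 1026 and 1415, with controls 1 and 2 at 393 and 614. It was 385, 424 and 324 at 12 hours and 631, 571 and 582 at 1 day. It was 955, 1014 and 695 at 3 days and 1548, 1348 and 1239 at 5 days. The groups at 12 hours, 1 day, 3 days and 5 days did not overlap with each other and stood in the order of exposure time. How many of all tested stood in such an order was not counted, and 53.7% did not overlap between 12 hours and 5 days. The controls alone spanned 393 to 1415. Fyn rose 3.66-fold from 12 hours to 5 days (log2 1.87 ± 0.37, limma adjusted p = 0.0127), and with the clusters as a block the difference was 1.12 (0.151).

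Against control, Fyn had log2 folds of -1.20 ± 0.32 at 12 hours (limma adjusted p = 0.0678), -0.54 at 1 day (0.559), 0.02 at 3 days (0.999) and 0.67 at 5 days (0.52). Without controls 1 and 2 it passed at 12 hours, at -1.61 (0.000159), and at 1 day, at -0.95 (0.0155). Ptk2b, or Pyk2, a focal adhesion kinase activated by calcium, did not pass in any comparison. Its 2 probe sets ranged from 186 to 567 and from 92.9 to 354, with differences of -0.06 and 0.28 between 12 hours and 5 days (0.92 and 0.691).

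**Figure D3:**
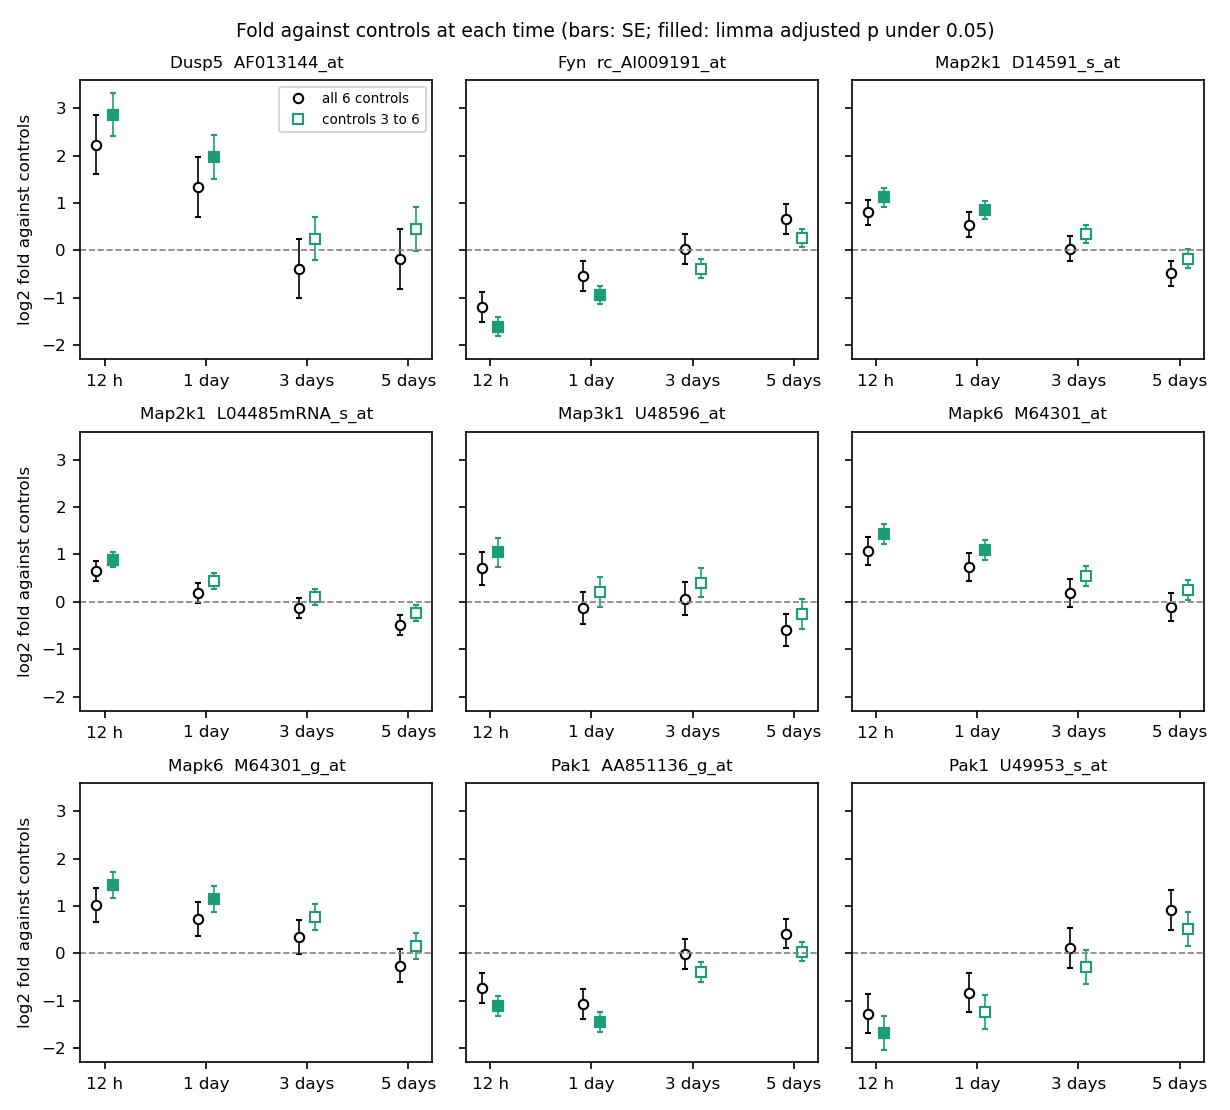
Log2 fold against control (y axis; error bars, SE) by exposure time (x axis) for the 9 probe sets that passed between 12 hours and 5 days, with all 6 controls (circles) and with controls 3 to 6 (squares; filled where limma adjusted p was below 0.05). With all controls Dusp5 was at 2.23 at 12 hours and Fyn at -1.20 and none passed. With controls 3 to 6 all 9 passed at 12 hours, where 31.3% of all tested did, in a comparison that crosses the clusters. The 9 had been chosen with the same 12 hours arrays, so their passing here is not a separate result.

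Of the 10 tested probe sets of the calmodulin-dependent kinases, 0 passed in any comparison of the limma fit of all arrays. At an unadjusted p under 0.05 there were 4 of 10 at 12 hours (40%, against 29.3% of all tested) and 4 of 10 at 1 day (40%, against 11.7%). Their median log2 fold was -0.24 at 12 hours, -0.39 at 1 day, -0.08 at 3 days and -0.06 at 5 days, against -0.18, -0.05, 0.02 and -0.14 for all tested. Between 12 hours and 5 days the median was 0.12, and it was -0.04 after quantile normalization and -0.01 after median centring.

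Camk2d, the delta subunit of CaM kinase II, had 5 probe sets that did not move alike. Probe set L13406_s_at had control signals of 121, 178 and 223 and was 322, 288 and 302 at 12 hours, above every control. It was 153, 194 and 195 at 1 day, 169, 257 and 218 at 3 days and 177, 206 and 173 at 5 days. Its log2 fold at 12 hours, 0.85 ± 0.21, had the smallest adjusted p of the 41 against control at any time (limma adjusted p = 0.0573), and it passed after quantile normalization at 1.03 (0.0412). Its difference between 12 hours and 5 days was -0.72 ± 0.24 (0.054), and it passed without controls 1 and 2 (0.0335). In contrast, rc_AI009268_at was 173, 125 and 142 at 12 hours, below every control at 179 to 215, with a fold of -0.43 ± 0.19 (0.156). The brightest, rc_AA894330_s_at, was 2242 to 3086 in controls and 3069, 3266 and 3227 at 12 hours, with a fold of 0.32 (0.149). Probe sets rc_AA925495_at and J05072_at had folds of -0.24 and -0.23 (0.557 and 0.508), and rc_AA925495_at was 94.8, 84.1 and 73.2 at 1 day and 82.9, 99.6 and 87.1 at 3 days, below the lowest control at 101.

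Camk2b, the beta subunit, had control signals of 306, 365 and 404 on probe set M16112_g_at and was 255, 282 and 219 at 12 hours, below every control. It was 285, 289 and 309 at 1 day, 310.3, 326 and 374 at 3 days and 346, 325 and 382 at 5 days. Its fold at 12 hours was -0.51 ± 0.15 (limma adjusted p = 0.0881), and without controls 1 and 2 it passed at -0.55 (0.0205). Its other probe set, at 1.5 to 4.9, was at the floor on all 18 arrays. Of the other subunits, Camk2g ranged from 155 to 347 and the tested probe set of Camk2a from 4.7 to 58.3, with 4 arrays at the floor, and neither passed. The untested probe set of Camk2a ranged from 11.9 to 46.2.

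Camkk1 phosphorylates and activates Camk1 and Camk4. Its control signals were 173, 205 and 236. Camkk1 was 158, 152 and 216 at 12 hours, 145, 72.3 and 151 at 1 day, 127, 168 and 334 at 3 days and 100.1, 147 and 129.9 at 5 days. The arrays at 1 and 5 days were below every control, with folds of -0.81 ± 0.29 and -0.72 ± 0.29 that did not pass (limma adjusted p = 0.337 and 0.469). Camk1 had control signals of 309.7, 440.2 and 617 and was 202, 264 and 447 at 1 day, a fold of -0.63 ± 0.28 (0.408), and within cluster B of -1.06 (0.0437). At 5 days Camk1 was 563, 556 and 579, within the controls. The 2 probe sets of Camk4 were too dim to be tested, at 2.4 to 10.7 and 1.2 to 15.9.

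Calcineurin, the calmodulin-activated phosphatase, was measured through its 2 catalytic subunits, and neither passed in the fit of all arrays. Ppp3ca had control signals of 468, 763 and 1204 and was 1047, 1143 and 1151 at 12 hours. It was 639.6, 669 and 628 at 1 day, 867, 802 and 454 at 3 days and 859, 836 and 791 at 5 days. Its arrays at 12 hours were above every control but control 1, with a fold of 0.57 ± 0.25 (limma adjusted p = 0.149), which passed without controls 1 and 2 at 0.57 (0.046). Its difference between 12 hours and 5 days, -0.43 (0.335), passed with only these 2 groups in the fit (0.0398). Ppp3cb had a control median of 96.1 and was 88.4, 109 and 116 at 12 hours and 124, 72.8 and 123 at 5 days, with control 2 at 3.5. Ppp1r3b, which targets protein phosphatase 1 to glycogen, ranged from 3.2 to 48.8 and Ppp1r9a, a neuronal scaffold of the same phosphatase, from 2.9 to 10.7. Both were too dim to be tested, and neither is itself a catalytic subunit.

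The receptor tyrosine phosphatases Ptprh and Ptprv were dim and variable. Ptprh had control signals of 27.2, 78 and 124.5 and was 40.4, 68.5 and 45.6 at 12 hours and 95.9, 101 and 89.7 at 5 days, a log2 difference of 0.93 (limma adjusted p = 0.364, and 0.0186 with only these 2 groups in the fit). Ptprv had control signals of 22.8, 59.5 and 459.8, the highest being control 2, and single arrays also stood high at 1 day (98.9, 60.1 and 428) and 3 days (119, 141 and 256). At 5 days Ptprv was 100.2, 18.6 and 10.9, and its largest fold against control, 1.34 ± 0.88 at 3 days, did not pass (0.999).

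**Figure D4:**
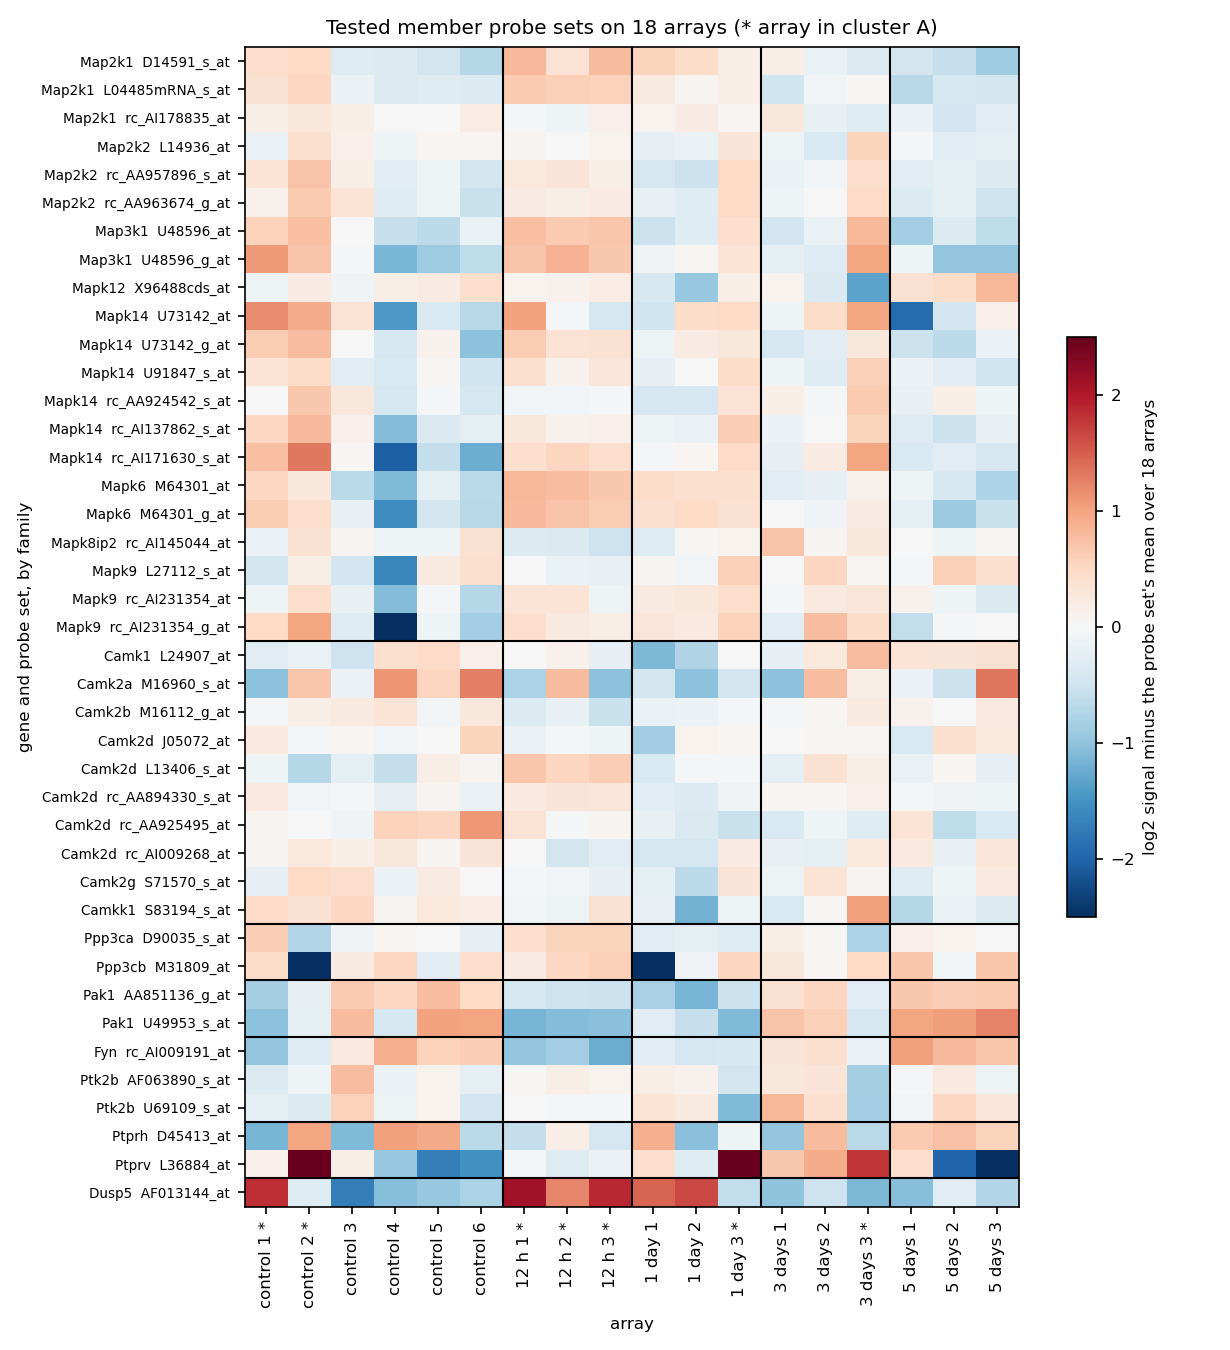
Signal of each of the 41 tested probe sets (rows, by family) on each of the 18 arrays (columns, by group), as log2 difference from the probe set's mean over the arrays. Map3k1 and Mapk6 are above their means at 12 hours and on controls 1 and 2, Dusp5 likewise except on control 2, and Fyn and Pak1 are below theirs on these arrays.

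Other genes of these pathways were few on the array. Of 19 Ras, Raf and adaptor genes 2 were measured, Araf and Nf1, and of their 4 probe sets 0 passed in limma in any comparison, 0 of them even at an unadjusted p under 0.05. Of 19 transcription factors downstream of MAP kinases 9 were measured with 15 probe sets. Against control 0 of these passed in limma at any time, with 9, 4, 6 and 0 at an unadjusted p under 0.05 and medians of 0.44, -0.24, -0.70 and 0.10 at 12 hours, 1 day, 3 days and 5 days. Of all tested, 29.3%, 11.7%, 4.58% and 9.15% were under that p, with medians of -0.18, -0.05, 0.02 and -0.14. Between 12 hours and 5 days 2 probe sets of Nr4a1 rose and 1 of Egr1 fell, which is 3 of 15 where 16.5% of all tested passed. Nr4a1, an immediate early nuclear receptor, went from a mean signal of 438 ± 12.4 to 1302 ± 395 (SD, n = 3) and from 721 ± 40.5 to 2173 ± 426, log2 differences of 1.52 and 1.57 (limma adjusted p = 0.0459 and 0.0446). Egr1, an immediate early zinc finger factor, went from 751 ± 31.8 to 355 ± 112 on 1 of its 4 probe sets, a difference of -1.13 (limma adjusted p = 0.0391), and the other 3 had differences of -0.75, -1.21 and -1.01 that did not pass. Of 20 calmodulin and calcium-binding regulators 8 were tested with 12 probe sets, and 0 passed in limma in any comparison, with at most 2 at an unadjusted p under 0.05.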

How the data were processed

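The deposited table gave 1 linear intensity per probe set and array, already scaled by the authors: a mean that leaves out 2% of values at either end agreed between all arrays within 1 unit of signal. The software behind it is not given in the sources used here. Of 1322 probe sets, 59 controls were left out. Signals below 11.3, the 10th percentile of the other 1263, were set to it, which understates folds of dim genes, and log2 was taken. The 1027 above 44.9, the 30th percentile, on at least 3 arrays were tested. Symbols came from the platform annotation (1137 probe sets with 1 symbol, 8 with several, 118 with none), and all 48 members matched RefSeq. Each probe set was kept on its own.

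The 18 arrays were fitted in 1 model of 5 groups (limma 3.58.1, R 4.3.3, 13 residual degrees of freedom), tested on simulated data. Tests were two-sided. Average linkage on 1 minus the correlation over tested probe sets that are no members gave the array clusters. The alternatives were scaling, floor, filter, variance model, the samples in the fit, replicate and cluster blocks, and single arrays left out. Named genes were those passing in any comparison, and in each family the 3 with the smallest F-test p and the 2 brightest. The remaining members appear so that each is accounted for. The members, gene lists, tests and naming rule were chosen with earlier results of these data known.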

Additional observations from a re-analysis of the deposited data

Results flagged for a closer look

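Control 2 stood apart for Ppp3cb, with a signal of 3.5 where the other 5 controls were 62.6 to 109. On the log2 scale, with 3.5 raised to the floor of 11.3, its gap to the nearest of them was 0.755 of the whole range of the controls, and on the signal itself 0.560. Of 29 probe sets of named genes it was the 1 past the limit for such a gap on the log2 scale, and chance alone marks some. On the signal itself the gap was past that limit for 3 others, 0.847 for Dusp5 (control 1), 0.862 for Ptprv (control 2) and 0.695 for a probe set of Ptk2b (control 3).

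The folds against control at 5 days and at 12 hours differed by a test of the difference itself, which is the comparison of 5 days with 12 hours, for 9 probe sets in limma. The difference in log2 fold was -2.41 for Dusp5, 1.87 for Fyn, 2.19 and 1.15 for Pak1, -1.29 and -1.13 for Map2k1, -1.31 for Map3k1, and -1.18 and -1.28 for Mapk6. Both folds use the same controls. With the 2 array clusters as a block none of the 9 passed, and the part of the clusters was not tested beyond that fit.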

How the results depend on the processing

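Of the 41 tested probe sets, the number that passed was compared with 15 other settings and with each of the 18 arrays left out, where a fit was possible. At 12 hours against control, 0 became 1 after quantile normalization or median centring (Camk2d), 2 without the filter on dim probe sets (Camk2d and Camk2b) and 16 without controls 1 and 2. At 1 day it became 6 without controls 1 and 2, 6 within cluster B and 1 (Pak1) with a block of 2 clusters. Between 12 hours and 5 days, 9 became 19 with only these 2 groups in the fit (38.2% of all tested), and 0 in limma with a block of 2 or of 5 clusters, where 0 of all tested passed. At an unadjusted p under 0.05 there were 10 and 2 with these blocks, without the share of all tested beside them. After median centring 2 were higher and 7 lower, where the deposited scaling gave 3 and 6. Dusp5 and Mapk6 probe set M64301_g_at did not pass after quantile normalization, after cyclic loess or without the filter on dim probe sets. Of 13 other settings Dusp5 passed in 8, M64301_g_at in 8, Pak1 probe set AA851136_g_at in 7, Map3k1 in 10 and Fyn in 11. Of the 18 fits with 1 array left out they passed in 10, 5, 8, 8 and 15. With 5 clusters, signs turned for Dusp5 (0.37), Mapk6 (0.013 and 0.25) and 1 probe set of Pak1 (-0.29), and the cause was not tested. The F-test gave 9 without controls 1 and 2 (22%, against 21.3% of all tested). Quantile normalization, median centring and loess moved the median fold of all tested at 12 hours from -0.18 to -0.02, -0.01 and -0.04.

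With the replicate number as a block, 1 passed at 5 days against control (Fyn) and 2 in the F-test (Fyn and Map2k1). The share of all tested that passed with this block is not given here, so these counts are not read as particular to the members. The labels do not say that the numbers pair samples. Of 10 pairs of groups, 1 had all same-numbered arrays deviating together, and in none did every array correlate best with its own number.

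With single arrays left out, the count was 0 to 11 at 12 hours, 0 to 1 at 1 day, 0 to 0 at 3 and at 5 days, 0 to 11 between 12 hours and 5 days, and 0 to 7 in the F-test. Of all tested, 0.0974% to 20.5% passed in these fits at 12 hours, 0% to 2.53% at 1 day and 0% to 0.292% at 3 days. The share was 0% to 0.195% at 5 days, 0.0974% to 20.9% between 12 hours and 5 days, and 0.0974% to 11.1% in the F-test. At 12 hours the count was 11 without control 1 and 3 without control 2. Between 12 hours and 5 days it was 1, 0 and 0 without 12 hours array 1, 2 or 3, and 3, 0 and 1 without 5 days array 1, 2 or 3. It was 5 and 4 without 1 day array 1 or 2. In the F-test it was 7 without control 1, 3 without control 2 and 1 without 1 day array 3. Comparisons whose groups do not share a cluster could not be fitted within it. Signals near the floor limit Camk2a, Camk4, Ptprh, Ptprv and Ppp3cb.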
